A study of Mus musculus with 8 samples.

Results

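The 83 genes described here encode proteins of the cytosolic ribosome, the particle that translates messenger RNA. They were taken from a deposited count table of 52636 mouse genes as protein-coding identifiers with a GENCODE M21 symbol of the Rpl, Rps or Rplp series, or Rpsa. Kinases of the Rps6k series and symbols with -ps, which mark pseudogenes, were left out. The set holds 51 genes of the large (60S) subunit and 32 of the small (40S) subunit, and 4 of the 83 lie on the X chromosome. Fau, which encodes a ribosomal protein fused to a relative of ubiquitin, carries another symbol and is not among them. A minimum on counts left 81 of the 83 for testing, of 17261 genes tested in all. The remaining pair were Rpl10l and Rpl39l.

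Immune cells came from spleens and lymph nodes of mice 35 to 55 days old that had not yet shown disease. They were kept for 4 days with anti-CD3 (1 μg/ml), IL23 and IL6 (20 ng/ml each), TGF-β (4 ng/ml) and IL12 (3 ng/ml), a mixture that drives T cells toward TH1 and TH17 states. TCR1640 mice have a transgenic T cell receptor that recognises myelin, bred on SJL/J, and SJL/J mice without the transgene were the control. All 4 groups, TCR1640 male, TCR1640 female, SJL/J male and SJL/J female, had the same culture and age range, and each had 2 columns of counts. The labels do not say whether the columns of a group came from separate mice.

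Each ribosome holds 1 copy of nearly every one of these proteins, with several copies of the acidic stalk proteins, so cells need them in near equal amounts. Most of their mRNAs begin with a C followed by a run of pyrimidines, the TOP motif, through which the kinase mTOR and the protein LARP1 govern their translation. Stimulated lymphocytes build many ribosomes before they divide, and transcription factors such as Myc raise the genes of ribosome assembly at that time.

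The data limit what can be compared. Within each group the columns differed by a chi-square of 1.05 to 1.08 per degree of freedom over all genes, against 3.12 to 17.1 between groups. Over the ribosomal protein genes alone these ranges were 0.910 to 1.41 within groups and 1.64 to 16.9 between groups. Each pair of columns was therefore added up as 1 sample, with totals of 10005975 counts for the TCR1640 male label, 7937262 for TCR1640 female, 7678860 for SJL/J male and 8378659 for SJL/J female. Y-linked genes matched the sex labels, with 105 and 124 Eif2s3y counts in the TCR1640 male columns, 87 and 93 in the SJL/J male columns and 0 in all female columns. T cell receptor segments went against the strain labels. Traj43 made up 2.91% of all counts on alpha joining segments in the library labelled TCR1640 male and 5.04% in that labelled TCR1640 female, against 79.2% in SJL/J male and 75.6% in SJL/J female. Strain names below are therefore only labels, and this conflict bears on each strain direction given. Cd3e, a T cell receptor subunit, had 455 to 1112 counts a column and Ptprc, the leukocyte antigen CD45, had 1209 to 3256.

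A second limit is the strand. The kit marks strand, the strand setting of the counting is not given in the sources used here, and 19 of the 83 genes have exons that overlap an exon of the opposite strand. In 7 of them the feature on the opposite strand had more counts than the ribosomal protein gene itself. The widest gaps, as a ratio of counts over all columns, were those of Rpl22l1, with 305 counts against 25357 for Gm33051 (83.1 times as many), Rpl35, with 3450 against 56856 for Wdr38 (16.5 times), and Rpl23a, with 3793 against 51190 for Tlcd1 (13.5 times). Over the whole table, 439 of 511 coding genes whose exons overlap 1 antisense feature by 100 bp or more (1000 counts or more together) had fewer counts than that feature (85.9% of the pairs), and features annotated as antisense held 12.4% of all counts. Counting with the opposite strand setting is therefore possible, and the deposited values would then be a remainder of the mRNA reads. Gapdh, a glycolytic enzyme usually among the most abundant mRNAs, had 109 CPM in TCR1640 male and 124 in TCR1640 female against 161 in SJL/J male and 136 in SJL/J female. Actb, the other gene looked up, stood far higher, at 1321 CPM in TCR1640 male and 1154 in TCR1640 female. In SJL/J it had 1423 CPM in the male and 1211 in the female. Every level and ratio below is one of deposited counts and cannot be read as an amount of mRNA. Reads of a gene and of its opposite partner cannot be told apart in these counts. Some results are also given for the 62 tested genes without such overlap.

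Ribosomal protein genes took 1.34% of all counts in the library labelled TCR1640 male and 1.18% in that labelled TCR1640 female, against 1.27% in SJL/J male and 1.08% in SJL/J female. By column the shares were 1.34% and 1.33% in TCR1640 males, 1.18% and 1.18% in TCR1640 females, 1.27% and 1.26% in SJL/J males, and 1.07% and 1.09% in SJL/J females. All 4 male columns lay above all 4 female columns. The 291 ribosomal protein pseudogenes with -ps in the symbol, copies that can share reads with these genes, took nearly the same shares. Their shares were 1.34% in TCR1640 male, 1.20% in TCR1640 female, 1.30% in SJL/J male and 1.12% in SJL/J female.

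Counted levels differed widely among the genes, and with the strand open their order is an order of counts, not of mRNA. As CPM per kb of exon (reads scaled to a common library total and to exon length, averaged over the 4 groups), the 81 tested genes ran from 2.69 to 659 with a median of 46.4. The 10 with most counts held 46.0% of the counts of the set. Total counts per gene over all columns ran from 229 to 45097 (median 3075), so the precision of single genes differs as well.

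**Figure D1:**
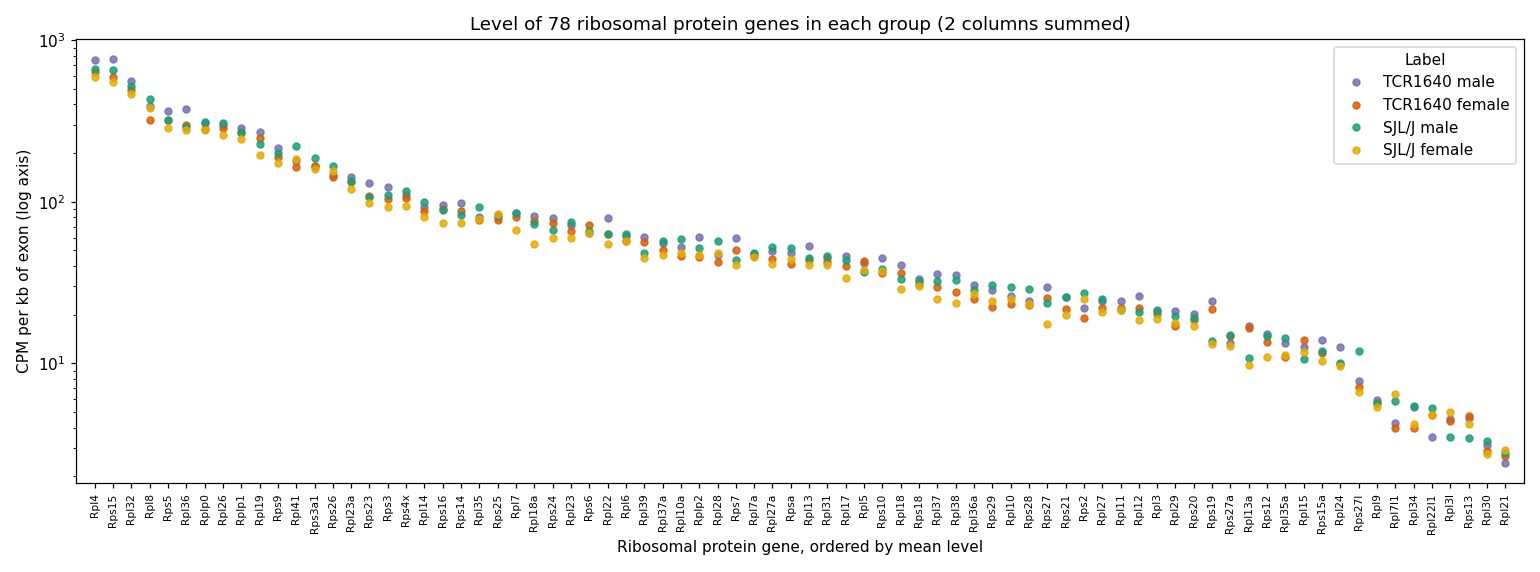
Level of 78 of the 81 tested ribosomal protein genes in CPM per kb of exon (log axis), with genes ordered by their mean and 1 point for each labelled group (2 columns summed, n = 1 per group). Mean levels run from 2.69 to 659, and Rpl4 and Rps15 lead the order.

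Rpl4, a large-subunit protein that lines the exit tunnel of the nascent chain, had the highest counted level. It stood at 750 CPM per kb in TCR1640 males, 635 in TCR1640 females, 659 in SJL/J males and 591 in SJL/J females. Rps15, a protein of the small-subunit head, followed with 764 and 588 CPM per kb in TCR1640 males and females, and 650 and 553 in SJL/J males and females. Rpl32, of the large subunit, had 556 and 493 CPM per kb in TCR1640 males and females, and 523 and 468 in SJL/J males and females. Rpl32 overlaps Cand2 on the opposite strand, which had 57752 counts against its own 16702. Rpl8, near the peptidyl transferase centre, had 391 CPM per kb in TCR1640 males and 319 in TCR1640 females, with 435 in SJL/J males and 378 in SJL/J females.

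The stalk proteins, which recruit elongation factors, spanned a wide range of levels. Rplp0, the base of the stalk, had 305 and 284 CPM per kb in TCR1640 males and females and 313 and 278 in SJL/J males and females. Rplp1 was close to it at 287 and 267 CPM per kb in TCR1640 males and females, and 269 and 246 in SJL/J males and females. Rplp2, the partner of Rplp1, lay well below both on this scale. It had 60.5 CPM per kb in TCR1640 males, 45.8 in TCR1640 females, 51.7 in SJL/J males and 47.1 in SJL/J females. Its annotated exons sum to 2072 bases against 499 for Rplp1, and much of the gap between these partners comes from that divisor. Before division by exon length, Rplp2 had 125 and 94.8 CPM in TCR1640 males and females and 107 and 97.5 in SJL/J. Rplp1 had 143 and 133 CPM in TCR1640 males and females and 134 and 123 in SJL/J. Rpsa, a small-subunit protein also known as the laminin receptor, stood at 48.1 and 40.9 CPM per kb in TCR1640 males and females and at 52.0 and 44.4 in SJL/J males and females. Rps27a, made as a fusion with ubiquitin, had 13.4 and 14.7 CPM per kb in TCR1640 males and females and 14.9 and 12.8 in SJL/J males and females.

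Starts of transcription are shown for genes that stood high in males, for genes called between strain labels, and for a stalk gene, because members of the set moved together in the comparison of the sexes. RefSeq promoter windows on GRCm38.p6 matched 63 of the 83 genes. Each line gives 30 bases before the annotated start and 15 from it on, 5′ to 3′ on the strand of the gene, and capitals mark a C followed by at least 4 pyrimidines that begins within 5 bases of the start. The positions are chr11:114668550-114668594 (plus strand) for Rpl38, chr3:130730323-130730367 (minus) for the second of the Rpl34 starts, chr3:90213634-90213678 (minus) for Rps27, chr7:45128731-45128775 (minus) for Rpl13a, chr7:24884562-24884606 (plus) for the first Rps19 start, chr17:46782642-46782686 (minus) for Rpl7l1 and chr7:141447621-141447665 (plus) for Rplp2.
Rpl38: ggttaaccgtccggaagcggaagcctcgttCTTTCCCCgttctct
Rpl34: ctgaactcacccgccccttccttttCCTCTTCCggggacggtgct
Rps27: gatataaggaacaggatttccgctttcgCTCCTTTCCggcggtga
Rpl13a: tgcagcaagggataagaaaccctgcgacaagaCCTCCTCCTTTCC
Rps19: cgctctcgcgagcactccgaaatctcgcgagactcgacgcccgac
Rpl7l1: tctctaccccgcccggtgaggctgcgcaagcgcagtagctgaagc
Rplp2: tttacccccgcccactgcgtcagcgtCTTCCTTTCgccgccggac

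Of the 63 matched ribosomal protein genes 29 (46.0%) held such a run, read on the strand of the gene only, against 21.2% of the 27025 genes of the RefSeq table. By window the shares were 41.3% of 75 and 18.4% of 32851. The letters CCGGAAG, the core that ETS family factors bind, were present on either strand of the window of 250 bases before and 50 after the start in 26 of the 63 genes (41.3%), against 9.93% of all genes. Its reverse complement, CTTCCGG, itself begins with a C and 4 pyrimidines, so a copy at the start counts in both searches. Rps19 and Rpl7l1 held no run at the starts printed, which says only that these letters are not in that window.

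The first comparison asked whether the sexes differ within each labelled strain. Ribosomal protein genes stood slightly higher in males under both strain labels, and no single gene passed the test over both. In the libraries labelled TCR1640, 69 of 81 genes had a male over female ratio above 1, against 49.9% of all genes tested, with a median log2 ratio of 0.13. In those labelled SJL/J, 74 of 81 were above 1, against 50.3% of all genes tested, with a median of 0.18. The median over all genes tested was 0.00 under both labels. Under both labels at once, 66 of 81 genes (81.5%) stood higher in males, against 27.4% of all genes tested, while 4 stood lower under both and 11 differed in sign. Each group is 1 sample, so these ratios have no replicate check. For scale, log2 ratios between the columns of a group had an SD over the 81 genes of 0.15 for TCR1640 males, 0.15 for TCR1640 females, 0.16 for SJL/J males and 0.22 for SJL/J females, around medians within 0.02 of 0.

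**Figure D2:**
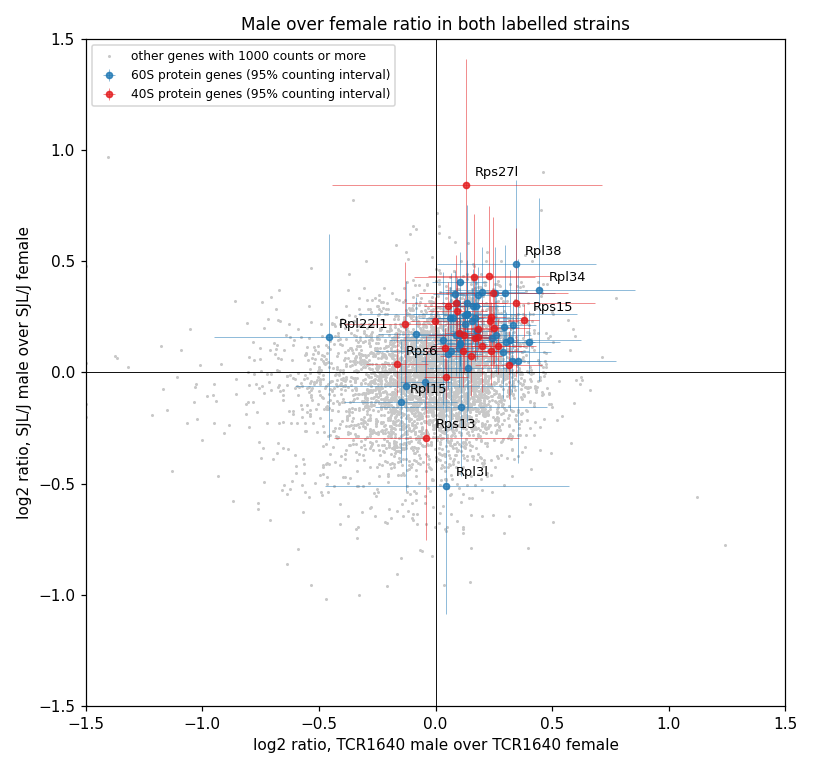
Log2 ratio of male over female under the TCR1640 label (x axis) and the SJL/J label (y axis) for 60S genes (blue) and 40S genes (red), with lines for 95% counting intervals, over other genes with 1000 counts or more (grey, held at the edge where they lie beyond the axes). Of the 78 ribosomal protein genes drawn, 66 lie above 0 on both axes, and the medians over all 81 are 0.13 and 0.18.

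Summed over all 83 genes, the log2 ratio of male over female was 0.16 under TCR1640 (95% counting interval 0.14 to 0.17) and 0.19 under SJL/J (0.18 to 0.20). Summed over the 64 of them without opposite overlap, it was 0.18 (0.16 to 0.19) and 0.20 (0.19 to 0.22). Both subunits took part. The 49 tested 60S genes had medians of 0.13 and 0.17 under TCR1640 and SJL/J, and the 32 tested 40S genes had 0.14 and 0.20. The 62 genes without overlap on the opposite strand had 0.15 and 0.20. The male library was the deeper one under TCR1640 and the shallower one under SJL/J.

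The additive edgeR model over the 4 summed samples called 0 of 81 genes between the sexes, where 1.1% of all genes tested were called. Its lowest adjusted p was 0.246, for Rps15 (log2 change 0.30, SE 0.12, higher in 2 of 2 labelled strains). An unadjusted p under 0.05 was reached by 13 of the 81 in edgeR, and by 1637 of all 17261 genes tested. In DESeq2, which also called 0, it was reached by 1 of the 81. The median log2 change over the 81 genes was 0.18, and 73 were positive. With the 8 columns entered as separate samples, edgeR called 50 of 81 genes higher in males and 0 lower, where 17.5% of all genes were called, 6.92% higher. That fit takes columns that differ by little more than sampling noise as replicates, so it compares libraries and not mice.

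By size, 7 of 81 genes differed by a ratio of at least 25% with a counting interval off equality under TCR1640, all of them higher in the male, where 16.1% of all genes tested were past that ratio and 6.26% were past it upward. Under SJL/J 12 of 81 were, again all higher in the male, where 13.4% of all genes were past it and 5.92% upward. The SJL/J count depends on the scaling. It was 5 with factors from genes without opposite overlap and 19 with total counts alone, scalings for which no share over all genes is given.

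The highest sex differences in the additive model belonged to genes with few counts. Rps27l, a paralog of Rps27 that p53 induces, had 27 and 36 counts in TCR1640 males against 20 and 25 in TCR1640 females, and 35 and 41 in SJL/J males against 26 and 19 in SJL/J females. The SJL/J columns did not overlap between the sexes. Its additive log2 change was 0.50 (SE 0.26, adjusted p = 0.558 in edgeR). Rpl38, a large-subunit protein needed for the translation of some Hox mRNAs in mouse embryos, had 97 and 93 counts in TCR1640 males against 60 and 57 in TCR1640 females. In SJL/J it had 72 and 68 counts in males against 58 and 48 in females, so under neither label did the columns of the sexes overlap, though the totals of the TCR1640 libraries differ too. Its log2 ratio was 0.34 (0.00 to 0.69) under TCR1640 and 0.49 (0.11 to 0.87) under SJL/J, and its additive change 0.41 (SE 0.18, adjusted p = 0.408 in edgeR). Rpl34, of the large subunit, had 67 and 74 counts in TCR1640 males against 35 and 46 in females, and 50 and 62 in SJL/J males against 37 and 55 in females. The SJL/J columns overlapped, and its additive log2 change was 0.41 (SE 0.20, adjusted p = 0.498). Rps29, a small-subunit zinc-binding protein, had 91 and 104 counts in TCR1640 males against 57 and 63 in females. In SJL/J it had 81 and 84 in males against 76 and 65 in females, and its additive log2 change was 0.33 (SE 0.18, adjusted p = 0.557).

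Genes at the other end did not pass either. Rpl3l, the muscle paralog of Rpl3, had 41 and 33 counts in TCR1640 males against 30 and 26 in females, and 18 and 27 in SJL/J males against 34 and 34 in females. Its additive log2 change was -0.22 (SE 0.26, adjusted p = 0.876 in edgeR). Rps13, of the small subunit, had 61 and 61 counts in TCR1640 males against 49 and 49 in females, and 40 and 33 in SJL/J males against 56 and 39 in females, with an additive change of -0.16. The columns of the sexes overlapped in neither case under TCR1640 before scaling for depth. Rpl15, of the large subunit, stood below equality under both labels, at -0.15 (-0.39 to 0.09) and -0.13 (-0.41 to 0.14), and both intervals hold equality. It had 150 and 159 counts in TCR1640 males against 131 and 137 in females, and 104 and 103 in SJL/J males against 104 and 137 in females. Nkiras1, on its opposite strand, held 12576 counts against the 1025 of Rpl15.

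The 4 X-linked genes stood higher in males under both labels. Rps4x, which in humans has a Y-linked copy, had 859 and 920 counts in TCR1640 males against 694 and 645 in females. Under SJL/J it had 724 and 758 in males against 632 and 649 in females. Its log2 ratio was 0.05 (-0.05 to 0.16) under TCR1640 and 0.30 (0.19 to 0.41) under SJL/J. Rpl10, which helps shape the peptidyl transferase centre, had 286 and 245 counts in TCR1640 males against 183 and 186 in females, and 235 and 242 in SJL/J males against 186 and 241 in females. Its ratios were 0.17 (-0.02 to 0.37) and 0.25 (0.05 to 0.44). Rpl36a had 251 and 251 counts in TCR1640 males against 154 and 167 in females, and 167 and 204 in SJL/J males against 174 and 196 in females, with ratios of 0.29 (0.08 to 0.50) and 0.09 (-0.12 to 0.30). Rpl39, a small protein of the exit tunnel, had 447 and 410 counts in TCR1640 males against 291 and 334 in females, and 261 and 282 in SJL/J males against 255 and 280 in females. Its ratios of 0.10 (-0.05 to 0.25) and 0.11 (-0.07 to 0.28) hold equality, and none of the 4 passed the additive test.

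Other measures were set beside the sex difference, and their part in it was not tested. The 291 pseudogenes also stood higher in males, with summed log2 ratios of 0.15 under TCR1640 and 0.17 under SJL/J. The 7 larger features opposite to ribosomal protein genes did not, at -0.05 (-0.07 to -0.03) and 0.00 (-0.02 to 0.02). With the strand setting open, these features may themselves hold reads of ribosomal protein mRNAs. They therefore cannot show whether the male excess is particular to the ribosomal protein genes. In 6 pairs that met a minimum of 200 counts each and 100 bp of overlap, the ribosomal protein gene stood above its opposite feature by a median of 0.12 under TCR1640 and 0.19 under SJL/J, in 5 of 6 pairs each. Among 1413 other coding genes under a larger opposite feature the same difference was 0.05 and 0.10, with the coding gene above in 809 and 927. Marker genes of neutrophils summed to 7.25 CPM in TCR1640 male and 10.3 in TCR1640 female, and to 153 in SJL/J male and 60.03 in SJL/J female, so the sum was lower in the male under TCR1640 and higher in the male under SJL/J. By gene, 2 of the 8 stood higher in the male under TCR1640 (median log2 ratio -1.34) and 7 of 8 under SJL/J (median 1.43), and the additive model called 3 of the 8 higher in males. S100a8 and Elane were at 0 in both libraries labelled TCR1640. Erythroid and platelet markers summed to 35.9 and 38.4 CPM in TCR1640 male and female, and to 282 and 164 CPM in SJL/J male and female, with 2 and 6 of the 7 higher in the male. In bulk samples fewer cells of a type and less RNA per cell cannot be told apart.

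**Figure D3:**
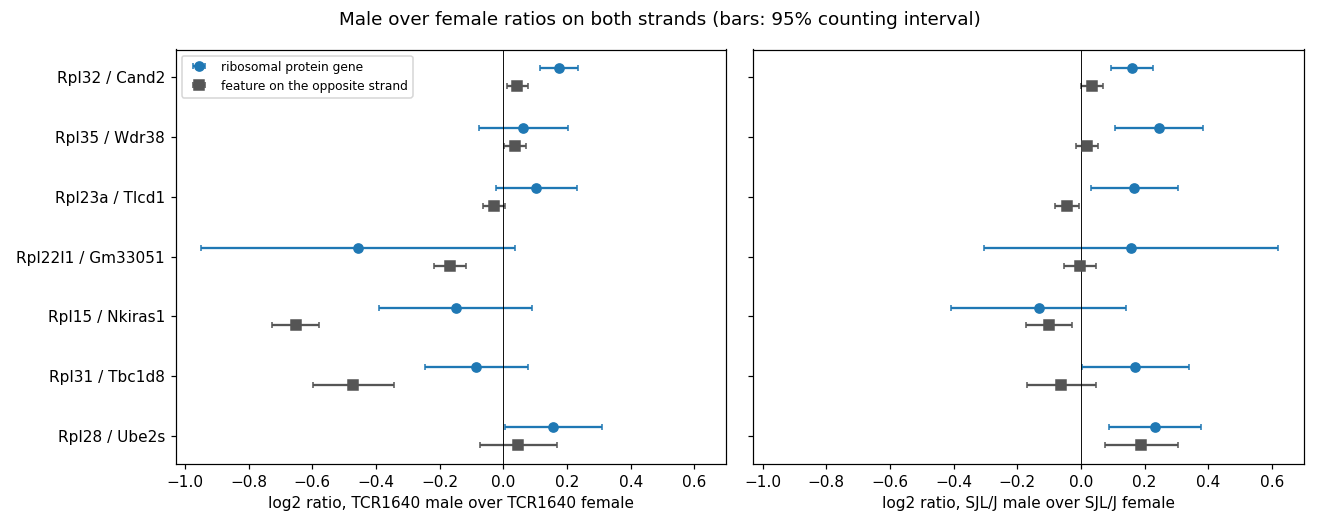
Log2 ratio of male over female for 7 ribosomal protein genes (blue circles) and for the larger features on their opposite strand (grey squares), under the TCR1640 label (left) and the SJL/J label (right), with 95% counting intervals. Summed, the 7 features stand at -0.05 and 0.00, and Nkiras1, opposite to Rpl15, and Tbc1d8, opposite to Rpl31, lie furthest below 0 under TCR1640.

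The sex ratio was also set between the labelled strains, as the log2 ratio under TCR1640 minus that under SJL/J. This difference was not tested, since each ratio rests on 1 sample a sex. Among the lowest were Rps27l at -0.71 and Rpl22l1 at -0.61. The difference was highest for Rpl3l at 0.56, for Rpl24 at 0.30 and for Rpl36 at 0.28. Rpl36, of the large subunit, had 708 and 715 counts in TCR1640 males against 435 and 450 in females, and 428 and 439 in SJL/J males against 442 and 447 in females. Rpl24, which forms a bridge between the subunits, had 69 and 60 counts in TCR1640 males against 40 and 39 in females, and 36 and 45 in SJL/J males against 41 and 42 in females, too few to separate its ratios of 0.35 and 0.05. Across the 81 genes the sex ratios under the 2 labels correlated weakly, with r = 0.25 and rho = 0.20, against 0.19 and 0.11 over all genes tested. That is a description over genes that share the same libraries.

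The second comparison set the TCR1640 label against the SJL/J label within each sex. How many ribosomal protein genes differed depends on what counts as a sample. By the additive edgeR model, 9 of the 81 were called between strain labels, with 7 higher and 2 lower under TCR1640. Over all genes tested 26.5% were called, 13.4% higher and 13.1% lower, so the set's share of calls (11.1%) was below that of all genes in this fit. With the 8 columns entered as samples, 42 of 81 were called (51.9%), 30 higher and 12 lower, where 49.5% of all genes were called, 25% higher and 24.5% lower, so the share was near that of all genes. The median log2 change was 0.07, against 0.01 over all genes and 0.04 over those with 1000 counts or more. Of the 62 genes without overlap on the opposite strand, 5 rose and 1 fell, with a median of 0.09. Among all 81 tested genes, Rps19, Rpl13a, Rps27, Rps7, Rpl18 and Rpl19 were among those that rose, and Rpl7l1 and Rps2 fell. Of the genes named, Rpl18 and Rps2 have exons that overlap the opposite strand.

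**Figure D4:**
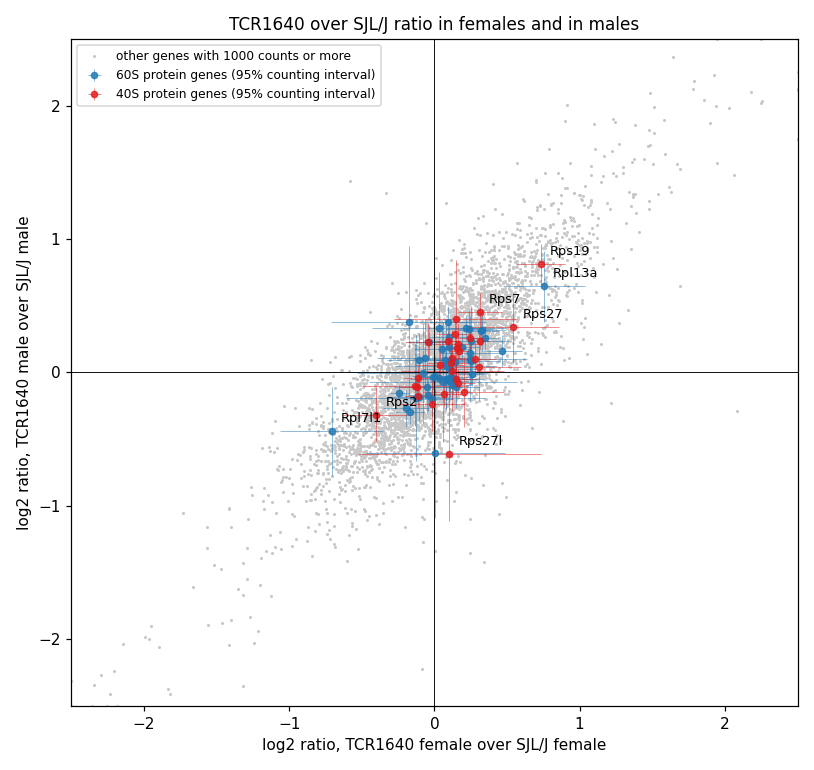
Log2 ratio of the TCR1640 label over the SJL/J label in females (x axis) and in males (y axis) for 60S genes (blue) and 40S genes (red), with lines for 95% counting intervals, over other genes with 1000 counts or more (grey, held at the edge where they lie beyond the axes). Of the 81 tested genes 78 are drawn, and Rps19 and Rpl13a stand at 0.73 and 0.81, and at 0.75 and 0.64.

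Within males, 13 of 81 genes differed by that ratio of 25% or more, 8 higher and 5 lower under TCR1640, where 38.3% of all genes tested were. Within females 9 were, 7 higher and 2 lower, where 32.9% of all genes were. Without SJL/J female column 2 the female count was 16, a setting for which no share over all genes is given. The medians were 0.06 in males and 0.10 in females, and without SJL/J male column 1 the male median was 0.03. Of the 62 genes without opposite overlap, 10 were past the ratio in males and 7 in females, with medians of 0.08 and 0.10. In both sexes 40 of 81 genes stood higher under TCR1640 (49.4%), 19 stood lower and 22 differed in sign. Of all genes tested 36.6% stood higher in both sexes, and of those with 1000 counts or more 44.1% did, which is nearer to the set. The ratios in males and females correlated across the 81 genes with r = 0.79 and rho = 0.62, again over shared libraries. Over all genes tested the values were 0.73 and 0.59, and over those with 1000 counts or more 0.86 and 0.78. The correlation is therefore not particular to the set.

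Rpl13a, of the large subunit, lies at chr7:45125558-45128761 on GRCm38, minus strand. In human cells it leaves the ribosome after interferon gamma to hold back the translation of inflammatory mRNAs. It had 189 and 167 counts in TCR1640 males and 148 and 124 in TCR1640 females, against 102 and 78 in SJL/J males and 89 and 84 in SJL/J females. No column labelled SJL/J reached one labelled TCR1640. Its additive log2 change was 0.70 (SE 0.16, adjusted p = 8.73e-05 in edgeR), and its 1 pseudogene stood at 0.37 in males and 0.32 in females.

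Chromosome 7 holds 14 of the 81 tested genes, and 4 of them rose (28.6%), with a median additive log2 change of 0.18. Over all 1347 genes tested on chromosome 7, 15.1% rose and 11.4% fell, with a median of 0.06. On the other chromosomes 3 of 67 ribosomal protein genes rose and 2 fell, with a median of 0.05, against 13.2% and 13.3% of all genes tested there. The difference between chromosomes rests on few genes and was not tested. Rps19, whose human copy is mutated in Diamond-Blackfan anaemia, lies on the same chromosome as Rpl13a (chr7:24884371-24889806, plus strand). It had 543 and 580 counts in TCR1640 males and 390 and 400 in TCR1640 females, against 245 and 261 in SJL/J males and 252 and 258 in SJL/J females. The columns did not overlap between the labels, which again is only a description. The additive log2 change was 0.77 (SE 0.13, adjusted p = 1.44e-07 in edgeR). Its 14 pseudogenes stood at 0.15 in males (0.08 to 0.22) and 0.14 in females (0.07 to 0.22). Rpl18 overlaps Sphk2 on the opposite strand, which rose by 0.84, and its own rise of 0.31 (adjusted p = 0.0475) is uncertain.

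Rps27, the parent of Rps27l, had 154 and 153 counts in TCR1640 males and 89 and 116 in TCR1640 females, against 93 and 99 in SJL/J males and 82 and 69 in SJL/J females. Its additive log2 change was 0.43 (SE 0.16, adjusted p = 0.0296 in edgeR), with 1 TCR1640 female column below both SJL/J male columns before scaling. Rps7, a small-subunit protein that can bind Mdm2, rose by 0.38 (adjusted p = 0.0156) and Rpl19 rose by 0.30 (adjusted p = 0.044).

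Rps2, at the mRNA entry of the small subunit, had 193 and 204 counts in TCR1640 males and 129 and 141 in TCR1640 females, against 193 and 198 in SJL/J males and 174 and 208 in SJL/J females. The male columns overlapped before scaling for the deeper TCR1640 library. Its additive log2 change was -0.36 (SE 0.14, adjusted p = 0.0494 in edgeR).

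Over 14 settings of the fit, Rps19 was called in all 14, Rpl13a in 13, Rpl7l1 and Rps7 in 12, Rps27 in 11, Rps2 in 7, Rpl18 in 5 and Rpl19 in 4. DESeq2 called 2 genes of the set. Without the number 1 columns 4 were called.

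Paralogs were set beside the genes they derive from. Rpl7l1, a relative of Rpl7 in the assembling large subunit, had 61 and 88 counts in TCR1640 males and 51 and 57 in TCR1640 females, against 75 and 85 in SJL/J males and 90 and 99 in SJL/J females. It fell by 0.57 on the log2 scale under TCR1640 (SE 0.18, adjusted p = 0.00702 in edgeR), lower in 2 of 2 sexes. Rpl7 had 1083 and 1177 counts in TCR1640 males and 846 and 823 in TCR1640 females, against 869 and 936 in SJL/J males and 722 and 777 in SJL/J females, a change of 0.12 (adjusted p = 0.519). Per kb of exon Rpl7 stood far above Rpl7l1, at 84.7 and 80.0 CPM per kb in TCR1640 males and females against 4.29 and 3.98 for the paralog.

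Rpl22 is needed for the development of alpha-beta T cells in mice, and its loss there raises its paralog Rpl22l1. Rpl22 had 1085 and 1216 counts in TCR1640 males and 715 and 713 in TCR1640 females, against 743 and 698 in SJL/J males and 617 and 702 in SJL/J females. Its strain change of 0.28 did not pass (adjusted p = 0.0785 in edgeR), nor did its sex change of 0.27 (adjusted p = 0.414). Rpl22l1 had 35 and 34 counts in TCR1640 males and 35 and 39 in TCR1640 females, against 43 and 40 in SJL/J males and 45 and 34 in SJL/J females. Its strain change was -0.30 (adjusted p = 0.369), in a gene whose opposite feature holds 83.1 times its counts. Rpl3 had 339 and 334 counts in TCR1640 males and 237 and 258 in TCR1640 females, and 252 and 270 in SJL/J males and 239 and 255 in SJL/J females. Both changes of Rpl3 were within 0.13 of 0 on the log2 scale, and neither passed. Rpl10l and Rpl39l, paralogs known from testis, had 0 counts in all 8 columns and 8 counts in all. For Rpl10l the limit set by a count of 0 is 3 counts over a group.

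Other genes of translation were listed with earlier results of these data known, and their counts stand beside the 13.4% of all genes that rose and the 13.1% that fell between strain labels. Of 22 translation factors and other TOP mRNAs, 1 rose under the TCR1640 label, 2 fell and 19 did not pass. Tpt1, a TOP mRNA for the tumour protein TCTP, had 8415 and 6176 counts in TCR1640 males and females against 3220 and 3336 in SJL/J, a rise of 1.02 (adjusted p = 2.51e-17 in edgeR). Hnrnpa1 fell by 0.58 and Nap1l1 fell by 0.50. Between the sexes 0 of the 22 rose, 1 fell and 21 did not pass, and their median log2 change was 0.10, against 0.18 for the ribosomal protein genes. The gene that fell was Eif2s3x, an X-linked initiation factor that escapes X inactivation, by 0.61.

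Of 29 genes of ribosome assembly, 2 rose, 10 fell and 17 did not pass between strain labels (41.4% passed, against 26.5% of all genes), with a median log2 change of -0.28, against 0.07 for the ribosomal proteins. Gar1, part of the pseudouridylation complex, fell by 0.88, and Rrp12 and Nip7, needed for export and processing of pre-ribosomes, fell by 0.72 and 0.71. Rrp9 and Heatr1, which rose by 0.56 and 0.34, have exons on the opposite strand. Between the sexes 0 of 29 passed, with a median of 0.07. Of 16 genes of Myc and mTOR control, 3 rose and 3 fell between strain labels (37.5% passed), a share that in so short a list is not set apart from that of all genes. Eif4ebp1, which holds back cap-dependent initiation until mTOR phosphorylates it, fell by 0.89, Eif4e fell by 0.55 and Larp1 fell by 0.35. Rptor, Rictor and Tsc2 rose by 0.48, 0.43 and 0.35, and of these Rptor and Tsc2 have exons on the opposite strand. Of 8 genes of ribosome surveillance found in the table, 0 rose, 3 fell and 5 did not pass, again too few to read against all genes. Of 77 tested genes for proteins of the mitochondrial ribosome, 3 rose, 4 fell and 70 did not pass (9.09% passed), with medians of -0.10 between strain labels and 0.04 between the sexes, where 0 passed.

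Markers of cell state moved with the strain label, and their part in these results was not tested. Naive T cell markers summed to 1905 CPM in TCR1640 male and 1878 in TCR1640 female against 932 and 948 in SJL/J male and female, and 7 of 9 rose. Cycling markers summed to 691 and 639 CPM in TCR1640 male and female against 1025 and 988 in SJL/J, and 7 of 8 fell. CD8 T cell markers summed to 380 and 356 CPM in TCR1640 male and female against 146 and 97.4 in SJL/J. Of the 5 tested, 3 rose and 2 did not pass. Over all genes tested 13.4% rose and 13.1% fell. Neutrophil markers fell in 7 of 8, mast cell and basophil markers in 6 of 7 and erythroid and platelet markers in 4 of 7. Of these, S100a8, Elane and Ppbp were at 0 in both libraries labelled TCR1640.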

How the data were processed

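RNA of cultured mouse immune cells was sequenced from libraries made with a KAPA stranded mRNA kit from 500 ng of RNA, per the labels' protocols. The authors deposited raw counts (whole numbers for each Ensembl gene) in 8 columns. Per the submitters' processing notes the tools were bcl2fastq 2.17, Bowtie2 and HTSeq, on mm10. Neither the strand setting nor the annotation release is given in the sources used here. Groups and replicate numbers came from the sample titles, and column totals ran from 3765291 to 5116467.

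Symbols, positions and exon lengths came from GENCODE M21 (GRCm38, the same assembly as mm10), which lacked 147 of the identifiers. Counts of the 2 columns of each group were added and treated as 1 sample. Ratios between groups, after TMM scaling of the totals, carry exact 95% binomial intervals for counting error only, without p-values. An additive model (sex and strain label) was fitted over all genes of the 4 summed samples with edgeR 4.0.16 under R 4.3.3, after filterByExpr, by its quasi-likelihood test, with a threshold of 0.05 on the Benjamini-Hochberg adjusted two-sided p. With 1 residual degree of freedom, neither the SE nor the p-values measure how mice vary. DESeq2 1.42.0, other scalings and filters, a fit of 8 columns and leaving out columns were alternatives. Of the fits, only the additive edgeR model was run on simulated data, for the change between strain labels. CPM per kb divides by the TMM-scaled total and the summed length of all annotated exons of a gene, merged over its transcripts. A gene with long or rarely used annotated exons is therefore set low on this scale.

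The ribosomal protein genes, the other lists and the rule for named genes were chosen with earlier results of these data known. The genes named are the 5 of highest level, the stalk proteins, Rpsa and Rps27a, X-linked genes, paralogs with their parents, the 4 highest and lowest changes in each additive contrast, the 3 furthest each way in the sex ratio between labels, the 3 with the largest opposite features, and other genes called. Some genes that this rule names are not reported here, in text or figures, though they stay in the counts and fits.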

Additional observations from a re-analysis of the deposited data

How the results depend on the processing

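No median changed sign under the alternatives run, but the strain share of calls against all genes did depend on the fit. Between strain labels the additive model called 5 ribosomal protein genes with no filter (6.10%, against 12.6% of all genes), 2 with DESeq2 (2.47% against 8.17%), and 4 and 6 without the number 1 and the number 2 columns (4.94% against 23.1%, and 7.41% against 19.9%). The 8 columns as samples gave 42 (30 higher and 12 lower, 51.9% against 49.5%), and with the replicate number as a block again 42 (51.9% against 49.7%), so the share was no longer below that of all genes. Between the sexes they gave 50, and 50 with the block, while 0 were called under every other setting. The block moved the calls over all genes from 7821 to 7857 and from 2759 to 2875. Same-numbered columns deviated together with r between 0.03 and 0.07. Columns of a group differ by little more than sampling noise, so this cannot settle whether same-numbered columns share more than a number. The median change between strain labels was 0.0428 with upper-quartile factors, 0.0316 with total counts, 0.0461 with a minimum of 1 CPM, 0.0936 over genes without opposite overlap, and 0.0584 to 0.0810 without either number. The median change between the sexes was 0.17 with factors from genes without opposite overlap, 0.21 with total counts, and 0.16 to 0.20 without either number.

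For single pairs of groups, thresholds of 1.5-fold and 2-fold left 5 and 1 genes between labels in males, 4 and 1 in females, 0 and 0 between the sexes under TCR1640, and 1 and 0 under SJL/J. Leaving out a column gave 7 to 16 genes between labels in females. With factors from genes without opposite overlap the SJL/J sex count was 5, and with total counts 19. No share over all genes is given beside these counts for single pairs, so they show only how the counts move with the setting. The male median between labels was 0.0277 with upper-quartile factors, 0.0877 with factors from genes without overlap, 0.0151 with total counts, 0.0267 with all opposite counts added (an alternative chosen after seeing the data), and 0.0287 to 0.0603 without a column. The female one was 0.0877 with RLE and 0.0890 with upper-quartile factors, 0.0795 with factors from genes without overlap, 0.0793 with total counts, and 0.0904 to 0.112 without a column. The sex median was 0.15 under TCR1640 with total counts and 0.14 to 0.16 without a column, and under SJL/J 0.13 with factors from genes without overlap, 0.22 with total counts and 0.16 to 0.22 without a column. As a share of counts in genes without opposite overlap, the ribosomal protein genes without it took 3.41% in TCR1640 male, 3.10% in TCR1640 female, 3.29% in SJL/J male and 2.94% in SJL/J female. Without a column the SJL/J female share was 1.07% to 1.09%. With 1 sample a group, no comparison measures spread between mice, and genes with few counts had wide intervals.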
